A study of Bos taurus with 40 samples.

Results

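Muscle late in a period of restricted feeding was compared with muscle of fully fed animals of the same breed and at the same time. The members are the 20 libraries of period 1, of 40 in the whole series, chosen by their titles. 10 came from restricted and 10 from control Holstein-Friesian bulls, a dairy breed, and each library is from a different bull. Restricted bulls had a limited allowance for 125 days, set for a gain of 0.6 kg per day. Control bulls had free access to feed, with an expected gain of over 1.5 to 2 kg per day. The diet was 70% concentrate and 30% grass silage in both groups, and all bulls were biopsied on day 120. The other 20 libraries are from day 15 of period 2, when the previously restricted bulls also had free access to feed. The labels give neither the muscle nor the age of the bulls. The protocol texts differ on the number of bulls, with 20 for the whole trial in one and 20 per feeding group in the other.

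Skeletal muscle is the main protein store of a growing animal and burns glucose and fatty acids for contraction. Long feed restriction is known to lower insulin and insulin-like growth factor signalling, to slow protein synthesis and fat storage, and to shift fuel use towards fatty acids. Transcript levels in a biopsy also reflect the fat, vessel, connective and immune cells it holds. In bulk tissue, fewer cells of a type and less RNA per cell cannot be told apart. The files name genes only by Ensembl cattle IDs, and the table of gene names used here pairs 0 of the 24616 IDs with a symbol. The tissue could therefore not be checked against its marker genes, no pathway or cell type list could be counted, and results are given by ID, level and animal.

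Gene counts were 20.8 to 31.0 M (M, 1000000 counts) in restricted and 24.3 to 29.7 M in control libraries of day 120. The share of reads outside annotated genes was taken over gene, outside-gene and ambiguous reads only. It was under 12% in 3 of the 20 libraries, those of restricted bulls 1 and 9 and control bull 6, at 10.5% to 11.0%. The other 17 had 14.1% to 18.7%. These 3 libraries stood apart on the first principal component of log2 levels, which held 25% of the variance, with scores of 52.5 to 63.6 against -23.2 to 3.37. Over the whole series 7 libraries were under 12%, and all 7 were among the 8 whose library code begins with 5 or 6. A term for these libraries was therefore part of every fit unless stated otherwise. The term was estimated together with the 4 group means, which keeps the fitted feeding difference. With it removed, the first component of the 20 libraries held 19.9% of the variance and followed feeding. Restricted libraries then scored 2.51 to 31.6 and control libraries -44 to 4.68, and 9 of the 10 restricted bulls lay above every control bull. Before the term was removed, the second component held 15.7% of the variance. Its scores were -31.8 to -2.28 in restricted and -4.67 to 43.9 in control libraries. The code numbers were not evenly spread: all 4 libraries with first number 1 were control libraries of day 120, those of bulls 3, 5, 7 and 8. What the number stands for is not given in the labels.

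Feed restriction was accompanied by many small differences and few large ones. 2273 of 12753 genes tested (17.8%) passed an adjusted p of 0.05 in the quasi-likelihood test of edgeR. In restricted bulls 1055 (8.27%) were higher and 1218 (9.55%) lower. The median size was 0.35 log2 units among the higher genes and 0.47 among the lower ones, against 0.17 over all genes tested. Of the changed genes 1660, or 73.0%, differed by less than 1.5-fold. Large differences were mostly decreases: a 2-fold difference or more was found in 52 higher and 155 lower genes, and one of 4-fold or more in 3 and 20. These 2-fold counts were 70 and 238 without the 4 libraries of code number 1, and 30 and 75 with the authors' filter on low genes. Without the 3 libraries of low outside-gene share and the 4 like them in period 2, 2102 genes differed, 1077 higher and 1025 lower. Among the 3 libraries themselves, 2 restricted and 1 control, there were too few for a test. Without the term 1249 genes differed. A factor for the first code number left 1300, 629 higher and 671 lower. Of these 1300 genes, 1179 were among the 2273 in the same direction. Without the 4 libraries of code number 1, 2245 genes differed, 1193 higher and 1052 lower, and 1719 were shared.

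**Figure D1:**
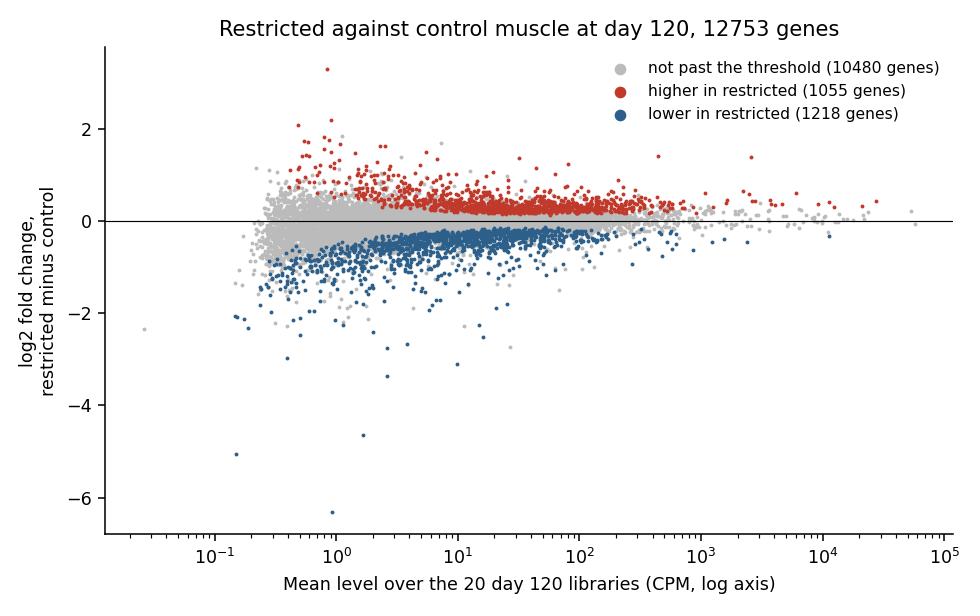
Each point is 1 of 12753 genes, with its mean level over the 20 day 120 libraries in counts per 1000000 (CPM, log axis) across and its fitted log2 fold change, restricted minus control, upwards. Genes past the adjusted threshold are red where higher (1055) and blue where lower (1218), and the largest differences, down to -6.32, are decreases of scarce transcripts.

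The direction of change differed with the abundance of the transcript. Levels are given as CPM of a TMM-scaled library size, which are not corrected for transcript length. Among genes under 1 CPM, 34 of 1762 were higher and 128 lower in restricted bulls. In the class of 1 to 10 CPM, 270 of 5283 genes were higher and 542 lower. Scarce transcripts were thus more often lower than higher. From 10 to 100 CPM the numbers were 550 higher and 493 lower of 4817. Between 100 and 1000 CPM they turned to 182 higher and 51 lower of 794. At 1000 CPM and above, 19 of 97 genes were higher and 4 lower. The share of higher genes among the changed ones rose from 21.0% in the lowest class to 78.1% and 82.6% in the upper 2 classes, and 17.8% of all genes tested were changed.

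Over all genes tested, changed or not, the median log2 fold change was -0.20 under 1 CPM, -0.06 at 1 to 10 CPM, 0.01 at 10 to 100 CPM, 0.08 at 100 to 1000 CPM and 0.14 above. With total counts alone as the scaling, the 5 medians were -0.29, -0.15, -0.08, -0.01 and 0.05, so that the sign of the 2 classes from 10 to 1000 CPM turned. The shares in each direction moved with the scaling, and with total counts alone 22.2% of changed genes were higher, against 46.4% with TMM. The order of the 3 middle classes did not. In all 19 settings compared, single libraries left out not among them, the share of higher genes rose from the class of 1 to 10 CPM to that of 10 to 100 and again to that of 100 to 1000. With total counts alone these shares were 16.7%, 21.1% and 51.6%. The spread between bulls was also wider for scarce genes, with a median SD of 0.51 log2 units in restricted and 0.55 in control bulls under 1 CPM, against 0.17 and 0.18 at 100 to 1000 CPM. The part of this in the counts of changed genes was not tested.

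**Figure D2:**
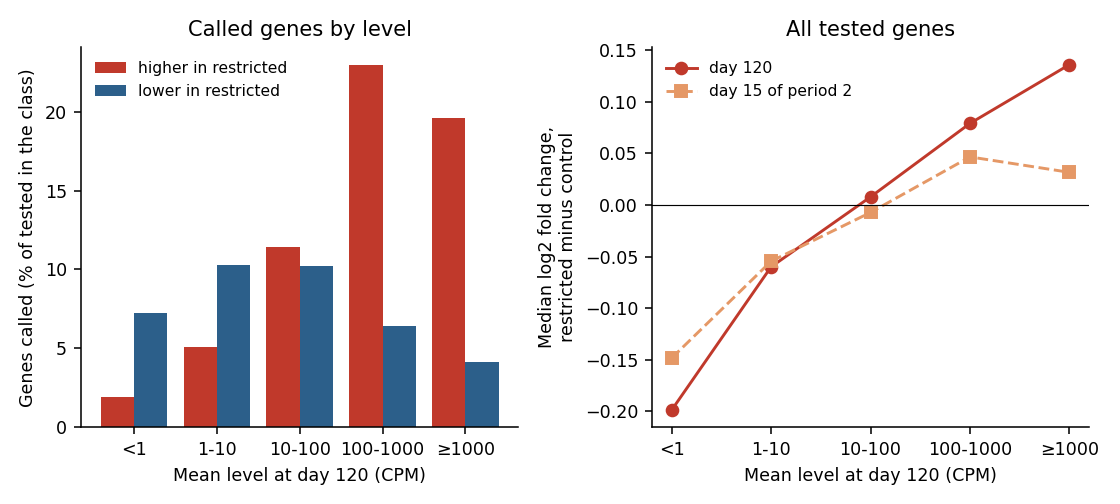
Left, the percent of genes tested in each class of mean level that were higher (red) or lower (blue) in restricted bulls at day 120, with 1762, 5283, 4817, 794 and 97 genes from the lowest class to the highest. Right, the median over all genes tested in each class of the log2 fold change, restricted minus control at day 120 (circles) and previously restricted minus control at day 15 of period 2 (squares), which rises with level from -0.20 to 0.14 at day 120.

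A slope of this kind also varied among the animals of a group. The median deviation of genes at 100 to 1000 CPM was set against that of genes at 1 to 10 CPM in each library, a difference that cancels any scaling of the whole library. It averaged 0.06 ± 0.07 log2 units in restricted and -0.07 ± 0.13 in control bulls of day 120 (SD, n = 10 each). The control median of -0.08 was exceeded by all 10 restricted bulls and the highest control bull by 1 of them. That bull, control bull 3 at 0.17, and the next 2 of the control group, bulls 5 and 8 at 0.01 each, had code number 1. Control bull 7, also of code number 1, was at -0.11, below the control median. Without the 4 libraries of that number, 9 of 10 restricted bulls lay above the highest control bull. The lowest control value was -0.33, in bull 2. On day 15 the averages were -0.04 ± 0.09 in previously restricted and -0.13 ± 0.21 in control bulls, where bull 7 stood lowest at -0.65. The medians were both -0.06, and 5 of 10 previously restricted bulls exceeded the control median, so this measure did not set the feeding groups apart at day 15.

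**Figure D3:**
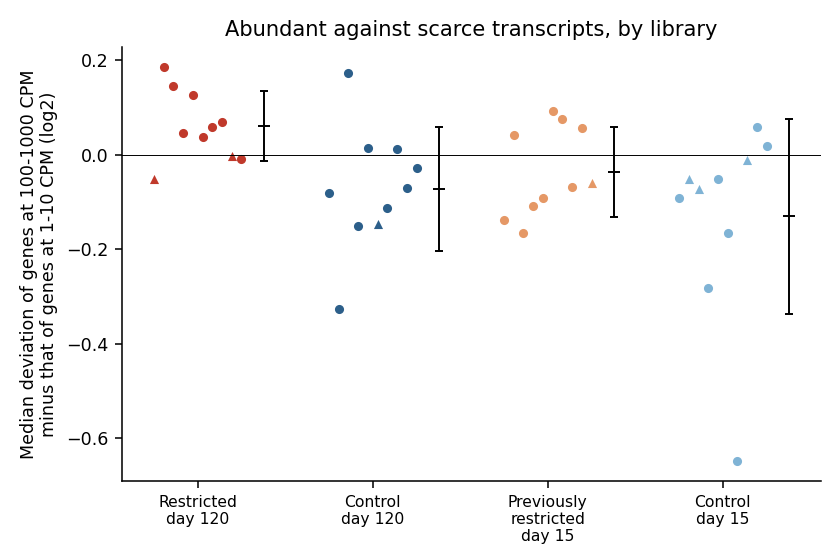
Each point is 1 library, and its height is the median deviation of genes at 100 to 1000 CPM minus that of genes at 1 to 10 CPM, in log2 units from the mean of the 20 day 120 libraries, with the term for low outside-gene share removed. Triangles are the libraries with under 12% of reads outside genes, bars are the mean and SD of 10 bulls, and the restricted bulls of day 120 lie between -0.05 and 0.19 against -0.33 to 0.17 in control bulls.

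Fewer genes were detected above 1 CPM in restricted muscle. 10714 ± 131 genes were over 1 CPM of total counts in restricted and 10980 ± 248 in control bulls (SD, n = 10 each), and the control median of 11003 genes was above every restricted library. The difference of -266 genes had p = 0.00544 in a two-sided permutation test, with an adjusted p of 0.0232 over 7 library measures. Counted on TMM-scaled levels, the numbers were 10802 ± 80.2 and 10945 ± 186, and the adjusted permutation p was 0.0602. The TMM factor averaged 0.952 ± 0.0419 in restricted and 1.02 ± 0.0574 in control bulls (permutation p = 0.00664, adjusted p = 0.0232). The 10 most abundant genes took 27.8% ± 1.21 of counts in restricted and 26.7% ± 1.48 in control bulls (permutation p = 0.0713, adjusted p = 0.125). Control bull 6 held 30.6% and the other control bulls 25.5% to 26.9%, and without the 3 libraries of low outside-gene share the means were 27.5% and 26.2% (exact permutation p = 0.0103, adjusted p = 0.024). Gene counts, the share outside genes and the share of ambiguous reads did not pass the test, with adjusted permutation p of 0.512, 0.322 and 0.512.

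Of the 10 most abundant genes 2 were higher and 0 lower in restricted bulls by the edgeR test, with log2 fold changes of all 10 between -0.05 and 0.43. Among the 100 most abundant, 19 were higher and 4 lower. The genes called higher took 20.3% ± 0.787 of the summed level in restricted and 16.3% ± 1.04 in control bulls, and those called lower 3.78% ± 0.164 and 5.34% ± 0.353 (SD, n = 10 each). These genes were chosen for that difference in the same libraries. The difference in the lower genes was thus small in total transcript although they were more numerous.

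4 genes are given by ID: in each direction, the pair with the smallest p among changed genes that also passed without the term and averaged at least 5 CPM in the group where they were higher. ENSBTAG00000019327 ranked 55 by abundance among the genes tested. It had 2675 to 5450 CPM in restricted bulls, with a median of 3425, against 1032 to 1958 CPM in control bulls, with a median of 1392. The groups did not overlap, and every restricted bull, from bull 8 at the low end to bull 6 at the top, lay above control bull 8, the highest control. Its means were 3730 ± 854 and 1418 ± 271 CPM (SD, n = 10 each), with a fitted log2 fold change of 1.404 ± 0.14 (SE; adjusted p = 6.22e-09 in edgeR).

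ENSBTAG00000007480 had 72.4 to 166.4 CPM in restricted bulls, with a median of 100.7, against 29.4 to 79.6 CPM in control bulls, with a median of 47.0. The groups overlapped through 1 animal on each side, since restricted bull 3 lay below control bull 2 and the other 9 restricted bulls lay above all control bulls. Its means were 112.4 ± 30.2 CPM in restricted and 47.7 ± 14.7 CPM in control bulls (SD, n = 10 each). A log2 fold change of 1.24 ± 0.15 was fitted (SE; adjusted p = 4.78e-07 in edgeR). Restricted bull 7 was the highest animal, and control bull 2 stood well above control bull 8, the next at 59.4 CPM.

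ENSBTAG00000006686 had the smallest p of all genes tested. It had 2.82 to 7.85 CPM in restricted bulls, with a median of 5.47, against 16.9 to 33.5 CPM in control bulls, with a median of 26.4. The groups were far apart: the highest restricted animal, bull 3, lay at less than the level of every control bull. Its means were 5.10 ± 1.398 CPM in restricted and 24.8 ± 6.22 CPM in control bulls (SD, n = 10 each), so that the control mean was 4.86 times as high, with a log2 fold change of -2.26 ± 0.16 (SE; adjusted p = 3.88e-13 in edgeR). Within the control group, bulls 2, 3, 6 and 10 lay between 16.9 and 19.2 CPM and the other 6 between 25.2 and 33.5 CPM.

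ENSBTAG00000014377 had 14.2 to 24.6 CPM in restricted bulls, with a median of 19.1, against 29.2 to 42.8 CPM in control bulls, with a median of 37.8. Again no animals of the 2 groups overlapped. Its means were 19.0 ± 3.93 CPM in restricted and 37.7 ± 4.05 CPM in control bulls (SD, n = 10 each). Its log2 fold change of -1.02 ± 0.10 (SE; edgeR adjusted p = 1.69e-09) is close to a halving, with a control mean 1.98 times the restricted mean. Over 38 alternative settings the log2 fold changes of the 4 genes kept their direction and their adjusted p stayed at 0.000803 or lower.

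**Figure D4:**
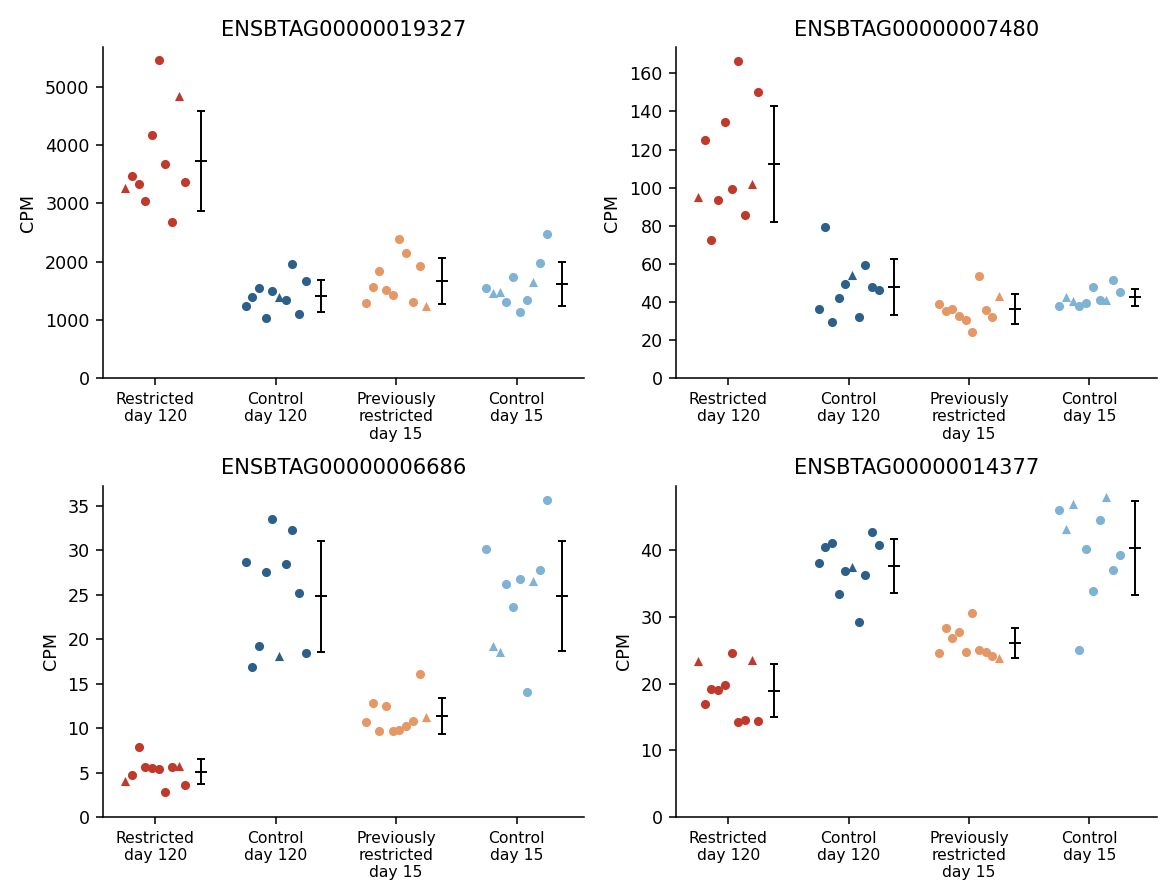
Each panel is 1 gene and each point 1 library, with the level in CPM on an axis from 0, in restricted and control bulls of day 120 and in previously restricted and control bulls of day 15. Triangles are libraries with under 12% of reads outside genes and bars are the mean and SD of 10 bulls. In 3 of the 4 genes, and not in ENSBTAG00000007480, the restricted and control bulls of day 120 do not overlap.

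A full separation of the 20 animals was rare. In 40 genes (0.314% of those tested) every restricted bull lay above every control bull, with a median log2 fold change of 0.61, and in 21 genes (0.165%) every restricted bull lay below, with a median of -0.92. All of these genes were among the changed ones, and 11 of the 40 and 10 of the 21 differed at least 2-fold. These counts used CPM from which the library term was not removed. Without the 3 libraries of low outside-gene share, 99 and 92 genes separated the remaining 17 animals. Few of the lower genes had a library with no count, after a filter that removed genes of low counts. 19 of the 1218 lower genes had no count in at least 1 restricted library and 3 had none in 5 or more. In at least 1 control library 6 had no count. Absence from all restricted libraries and the share over all genes tested were not counted.

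Every bull of day 120 lay nearer the mean of its own feeding group at most of the genes called without it. This places a bull between 2 groups of different animals and does not measure its own response. Each day 120 library was left out in turn, genes were called from the other libraries, and the share of these genes at which the omitted bull was nearer the restricted than the control mean was counted, over 1852 to 2359 genes. It was 62.5% to 90.4% in the 10 restricted bulls, with a mean of 73.7% ± 9.18, and 14.9% to 40.9% in the 10 control bulls, with a mean of 27.2% ± 8.75 (SD, n = 10 each). All restricted bulls were above 50% and all control bulls below it, so the groups did not overlap although the library placed had no part in the choice of genes. The day 15 library of the same bull stayed in the fit. Restricted bull 7 had the highest share, followed by bull 5 at 84.6% and bull 2 at 81.8%. The share counts genes on the restricted side of the midpoint, so a bull beyond the restricted mean also scores high. Restricted bulls 9 and 1, at 62.5% and 66.1%, are the 2 animals with low outside-gene share, and bull 8 lay between them at 64.5%. At the control end stood bull 4 at 14.9%, while control bulls 3, 8 and 10 were the least distinct at 40.9%, 38.3% and 34.4%. Bulls 3 and 8 carried code number 1, and so did control bulls 5 and 7 at 27.6% and 19.1%. Genes that were higher and genes that were lower gave the same separation, with 65.7% to 90.2% and 58.6% to 90.7% in restricted bulls against 15.8% to 42.2% and 13.8% to 39.4% in control bulls.

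**Figure D5:**
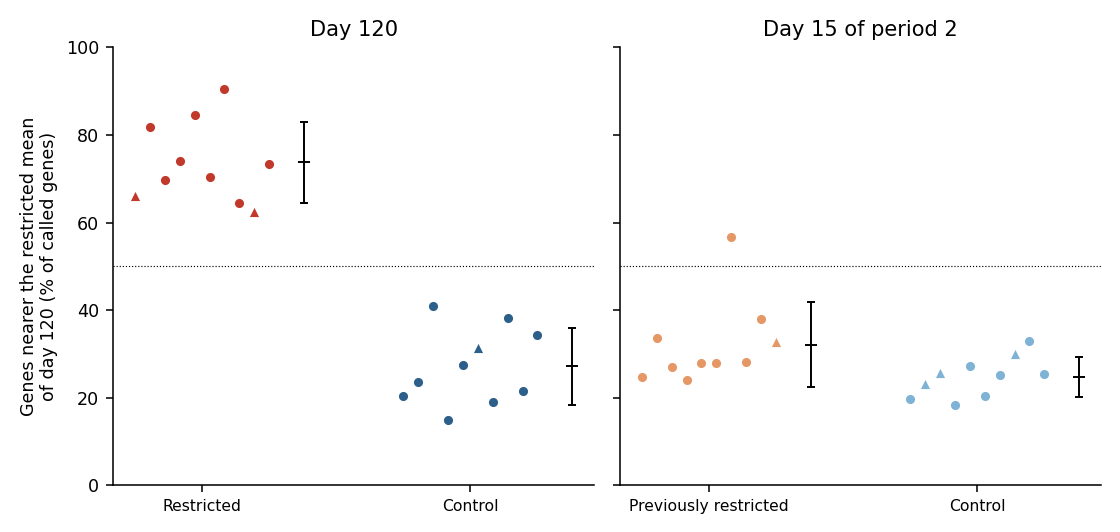
Each point is 1 bull, placed by genes called without its day 120 library, while its day 15 library stayed in the fit. Its height is the percent of called genes at which its library was nearer the restricted than the control mean of day 120, at day 120 (left) and at day 15 of period 2 (right), with restricted bulls left of control bulls in each panel. Triangles are libraries with under 12% of reads outside genes, bars are the mean and SD of 10 bulls, the dotted line is 50%, and restricted bulls lie at 62.5% or more at day 120 but, bull 7 aside, under 40% at day 15.

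Single animals held more than an even share of the extreme values among the genes with large differences. These genes were called with the same libraries, so an animal with extreme values helped to choose them, and the shares are a description. Of the 155 genes at least 2-fold lower in restriction, restricted bull 7 had the lowest level of its group in 23.2%, against 8.13% over all genes tested. For the same genes control bull 2 had the highest control level in 29.0% and control bull 4 in 18.1%, against 16.9% and 5.54% over all genes tested. Restricted bull 7 also had the highest restricted level in 13 of the 52 genes that were 2-fold higher or more, against 7.61% of all genes. Other extremes narrowed the difference between the groups. In these 52 genes control bull 6 had the highest control level in 34.6% and control bull 8 in 21.2%, against 23.5% and 7.54% over all genes tested. Restricted bull 9 had the highest restricted level in 20.0% of the 155 lower genes, against 19.7%. These ranks used CPM from which the library term was not removed. Leaving out restricted bull 7 gave 118 genes at least 2-fold lower, the smallest number for any bull, and 1858 changed genes in all. Within groups the spread between bulls was similar. Over 7415 genes of at least 5 CPM in both groups, the median SD of log2 levels was 0.19 in restricted and 0.19 in control bulls, and 42.8% of the genes were more variable in restricted bulls. Among the changed genes of these, the share was 42.1% for higher and 44.8% for lower ones.

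Of the 2273 genes changed at day 120, 698 also differed in the size of that difference between day 120 and day 15, after feeding was restored. This was tested in the same fit, where 1152 genes passed in all (9.03%), 542 more positive and 610 more negative at day 120, at a median size of 0.57 log2 units. Without the 7 libraries of low outside-gene share the count was 698, and with bull as a block by random effect in limma it was 1723, 823 more positive and 900 more negative. Without the term 385 were more negative. Of the 1055 genes higher in restriction, 336 passed this test, 335 of them with the more positive difference at day 120. Of the 1218 lower genes, 362 passed, all with the more negative difference at day 120. The day 120 libraries enter both tests, so the direction of this change is partly set by the choice of genes. The median log2 fold change of the higher genes was 0.35 at day 120 and 0.06 at day 15, and that of the lower genes -0.47 and -0.09.

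By the calls that left each bull's day 120 library out, previously restricted bulls at day 15 were nearer the restricted mean at 24.1% to 56.7% of genes, with a mean of 32.1% ± 9.64, and control bulls at 18.3% to 32.9%, with a mean of 24.8% ± 4.60 (SD, n = 10 each). The groups overlapped. Restricted bull 7, the animal with the highest share at day 120, was the only previously restricted bull above 50%, and bull 9 followed at 38.1%. By class of level, the median log2 fold changes at day 15 were -0.15 under 1 CPM, 0.05 at 100 to 1000 CPM and 0.03 at 1000 CPM and above, where those at day 120 were -0.20, 0.08 and 0.14. Of the genes at 100 to 1000 CPM that differed at day 15 by the edgeR test, 139 were higher and 43 lower in previously restricted bulls, and at 1000 CPM and above 9 were higher and 7 lower. Whether the pattern by level differed between the times was not tested.

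The 4 genes moved back to different degrees. They were chosen by their p at day 120, which favours a larger difference at that time. At day 15 ENSBTAG00000019327 was at 1666 ± 391 CPM after restriction, against 1614 ± 379 CPM in control bulls (SD, n = 10 each). The log2 fold change was 0.03 ± 0.14 (adjusted p = 0.918 in edgeR). Its difference between the times was 1.37 ± 0.20 log2 units (edgeR adjusted p = 3.06e-05). ENSBTAG00000007480 was at 36.3 ± 8.00 CPM after restriction, against 42.5 ± 4.49 CPM in control bulls, so that the fitted day 15 value of -0.23 ± 0.15 was on the other side of 0 without passing the test (edgeR adjusted p = 0.344). The difference between the times was 1.46 ± 0.21 (edgeR adjusted p = 3.06e-05).

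ENSBTAG00000006686 remained lower at day 15, with 11.4 ± 2.00 CPM after restriction, against 24.9 ± 6.23 CPM in control bulls (SD, n = 10 each), a log2 fold change of -1.17 ± 0.15 (SE; edgeR adjusted p = 1.17e-05). Its difference between the times was -1.09 ± 0.22 (edgeR adjusted p = 0.00108), so the gap had narrowed and not closed. ENSBTAG00000014377 was also still lower, at 26.1 ± 2.22 CPM against 40.4 ± 7.06 CPM, a log2 fold change of -0.58 ± 0.10 (SE; edgeR adjusted p = 0.000185). Its difference between the times of -0.44 ± 0.14 (edgeR adjusted p = 0.0353) was near the threshold. With bull as a block, which follows the sampling of the same bulls at both times, the adjusted p was 0.00878 by random effect in limma and 0.007 as a fixed block in edgeR. Of 36 alternative settings an adjusted p of 0.05 was not passed in 13, with adjusted p over all settings of 0.007 to 0.122. The 36 include the main fit read at a threshold of 0.01, which 0.0353 does not pass and which is not among the 13. Among these 13 were the fit without the term (0.122) and those without restricted bull 2, 7, 8 or 10 (0.0564 to 0.0751) or control bull 1, 2, 3, 5 or 9 (0.0503 to 0.0663) of day 120.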

How the data were processed

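Per the labels' protocols, RNA from frozen muscle was extracted with Trizol, DNase treated and purified on columns, and single-end TruSeq mRNA libraries were sequenced. CASAVA 1.4, TopHat, HTSeq, edgeR and the assembly UMD3.1 appear in the submitters' processing notes, with no roles or settings. The authors deposited whole-number read counts for 24616 genes, with 92 spike-in entries at 0. They also deposited a normalised signal, used only for its list of genes. Library sizes hold gene lines only: reads outside genes were 10.0% to 18.7% and ambiguous reads 0.584% to 1.398% of a library. Strand and treatment of shared reads are not stated, so overlapping and near-identical genes are uncertain.

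Counts were fitted with edgeR 4.0.16 (R 4.3.3): quasi-likelihood F test, robust dispersions, TMM scaling, filterByExpr (minimum count 10, total 15; 12753 genes kept), 4 group means over all 40 libraries and a term for the 7 libraries with under 12% of reads outside genes. Benjamini-Hochberg adjustment covered all genes tested. SEs were derived from the F statistics. Displayed log2 levels used a prior count of 2. The fit was tested on counts simulated from its own means and dispersions. That simulation held no correlation within bulls, no effect of code number and no changes under 2-fold, so it does not test these. Alternatives used limma 3.58.1 with voom and DESeq2 1.42.0. Library measures were tested with 100000 permutations in SciPy 1.17.1 (Python 3.11.15). Every pair of libraries within a day 120 group differed by more than sampling noise (smallest chi-square per gene 23.9).

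The members, lists and tests were chosen with earlier results of these data known. The gene lists and the rule for named genes needed symbols, which 0 IDs had. The rule was applied without the symbol to the first 2 genes in each direction, and its parts for lists were dropped. The class limits of level, the comparison of abundant and scarce genes and the placing of omitted bulls were chosen after seeing the data. Same-numbered restricted and control libraries are of different bulls and do not pair. Across times the title numbers were taken to mark 1 bull. Same-numbered libraries correlated at 0.19 to 0.38 in restricted and 0.11 to 0.43 in control bulls in their deviations from group means. Differently numbered libraries reached 0.18 in restricted and 0.34 in control bulls. All 10 restricted libraries of day 120 were closest to their own number, but only 5 of 10 control libraries. The link across times, on which the blocks by bull rest, is thus less sure for control bulls.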

Additional observations from a re-analysis of the deposited data

Results flagged for a closer look

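In 5 of 34 checks, each of 1 gene or measure in 1 group of 10 bulls, 1 animal stood far from the others. Chance gives about 1 in 20 for independent checks, which these were not. Library measures were checked at day 120 only. Control bull 6 at day 120 accounted for 3 of the 5, with 10.5% of reads outside genes, 0.584% ambiguous reads and 30.6% of counts in the 10 most abundant genes. Restricted bull 7 stood apart at day 15, nearer the restricted mean at 56.7% of genes against 24.1% to 38.1% in the other previously restricted bulls. ENSBTAG00000006686 was at 16.1 CPM in restricted bull 9 at day 15, against 9.66 to 12.9 CPM in the other previously restricted bulls.

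The difference between the feeding groups changed between day 120 and day 15 in all 4 genes given by ID, by the edgeR test of the change itself. It was larger at day 120 by 1.37 log2 units in ENSBTAG00000019327 and by 1.46 in ENSBTAG00000007480, and more negative at day 120, at -1.09 in ENSBTAG00000006686 and -0.44 in ENSBTAG00000014377, where the test was not passed in 13 of 36 alternative settings. The 4 genes were chosen by their p at day 120, and the same libraries enter this test. A larger difference at day 120 is therefore partly set by that choice.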

How the results depend on the processing

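Against 2273 changed genes (1055 higher, 1218 lower) and 1152 that differed between the times, counts moved by more than 1.5-fold in these settings. Without the term 1249 differed (573 and 676), and in the 20 libraries alone without it 1243 (630 and 613). The first code number as a factor gave 1300 (629 and 671), and an adjusted p under 0.01 gave 1135 (565 and 570), with 487 between the times. Total counts alone gave 512 higher and 1790 lower. Between the times 698 passed without the 7 libraries of low outside-gene share and 534 without these and those of code number 1, a setting added after seeing the data. Against 52 increases and 155 decreases of at least 2-fold, there were 30 and 75 with the authors' gene filter and 33 and 89 with a minimum mean level of 1 CPM. Increases were 84 with no filter. Decreases were 94 in the 20 libraries without the term, 78 there with the title number as a block, 98 at an adjusted p under 0.01, and 238 and 308 without code number 1 and without both sets. Leaving out single day 120 libraries gave 1858 to 2370 changed, 942 to 1286 higher and 841 to 1198 lower genes, and 978 to 1282 between the times. Single day 15 libraries were not left out. Control bull 7 of day 15 had a TMM factor of 1.43, against 0.874 to 1.11 in the other control bulls of day 15. Its weight in the counts between the times was not tested.

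The more frequent direction depended on the setting: DESeq2 gave 1314 higher and 1184 lower. 0 of the 2273 genes had the opposite sign in any setting that tested them. With the title number as a replicate block in the 20 libraries 1839 genes differed. Same-numbered libraries of the 2 feeding groups correlated at a median of -0.01 and 0 of 10 were closest to their own number. Bull as a replicate block gave 2259 by random effect in limma, and between the times 1723 by random effect and 1692 as a fixed block. The median SE was 0.29 log2 units under 1 CPM and 0.09 at 10 to 100 CPM, and the parts of depth and of the spread between bulls in this were not tested.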
